A study of Mus musculus with 28 samples.

Results

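RNA-seq of 4 mouse brain regions was searched for 10 immediate early genes, the transcription factor genes *Fos*, *Fosb*, *Junb*, *Egr1*, *Egr2*, *Egr3*, *Egr4*, *Nr4a1* and *Npas4* and the synaptic gene *Arc*. They were chosen by name, as 10 of the 29878 genes listed in the count files, and all 10 passed the filter on low counts (more than 1 CPM, a read count corrected for sequencing depth, in 2 or more libraries), as did 14979 genes in all. The study compared wild-type (WT) mice, mice heterozygous for a germline knockout of *Hdc* (Het) and homozygous *Hdc*-KO mice (KO). *Hdc* encodes histidine decarboxylase, the enzyme that makes histamine. The line was backcrossed to C57Bl/6, and the mice were 2 to 3 months old. The labels and methods give no drug or behavioural treatment for these mice, whose regions were dissected on ice. The dorsal striatum (DS) gave 2 WT, 3 Het and 2 KO libraries, the ventral striatum (VS) and the hypothalamus (HY) each 3 WT, 3 Het and 2 KO, and the motor cortex (MC) 1 WT, 2 Het and 2 KO. Each library name carries a number, 1 to 3 for WT, 4 to 6 for Het and 7 or 8 for KO, which recurs across regions. The labels do not say what the number is. Nothing says that libraries of a group came from separate animals, so p-values measure the spread between these libraries, which may in part be technical.

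Immediate early genes are transcribed within minutes of synaptic activity or growth factor signalling, without new protein synthesis, and are widely used as markers of recently active neurons. Calcium and MAP kinase signals act on factors already bound at these genes, such as CREB at cAMP response elements (CRE) and serum response factor at CArG boxes, and the mRNAs are then short-lived. FOS and FOSB pair with JUN proteins to form AP-1, the EGR proteins are zinc finger factors, NR4A1 is an orphan nuclear receptor, NPAS4 is a neuronal factor that responds to calcium entry, and ARC acts at synapses on AMPA receptor uptake. In striatal spiny neurons both dopamine and glutamate inputs are known to drive these genes.

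On GRCm38, *Fos* lies at chr12:85473890-85477273 (+), *Fosb* at chr7:19302696-19310051 (-), *Junb* at chr8:84974484-84978718 (-), *Egr2* at chr10:67535475-67542188 (+), *Egr3* at chr14:70077203-70082614 (+), *Egr4* at chr6:85511121-85513589 (-), *Nr4a1* at chr15:101254269-101274795 (+), *Npas4* at chr19:4984355-4990316 (-) and *Arc* at chr15:74669083-74672570 (-). Reads on all exons of a gene, untranslated parts included, were summed to 1 count.

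The sequence before the start site is shown because several members had like orders of libraries. The 250 bases before a RefSeq start on GRCm38.p6 were searched for 7 members, in 11 windows, of which 5 are of *Egr2*. *Egr1* was left out of this search, and *Arc* and *Egr3* gave no window. 5 of the 11 windows are shown, chosen from those of members that differed between genotypes or carry an element. Those of *Junb* and *Egr4* are not shown. Capitals mark a CRE core site (TGACG, or CGTCA when it lies on the other strand), a CArG box (by its name, CC, 6 A or T, GG) or a TATA box (TATAAA), each read 5′ to 3′ up to the base before the start.
*Fos* (chr12:85473640-85473889, + strand): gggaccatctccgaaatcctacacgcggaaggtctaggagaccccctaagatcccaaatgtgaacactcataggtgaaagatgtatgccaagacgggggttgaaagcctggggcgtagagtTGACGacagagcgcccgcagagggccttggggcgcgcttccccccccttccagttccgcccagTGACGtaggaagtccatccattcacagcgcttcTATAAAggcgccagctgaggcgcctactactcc
*Fosb* (chr7:19310046-19310295, - strand): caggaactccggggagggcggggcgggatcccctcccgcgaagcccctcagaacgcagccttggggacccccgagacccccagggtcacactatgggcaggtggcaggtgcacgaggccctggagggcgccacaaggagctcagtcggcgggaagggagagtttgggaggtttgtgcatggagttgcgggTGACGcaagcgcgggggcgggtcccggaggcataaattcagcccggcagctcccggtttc
*Egr2* (chr10:67537619-67537868, + strand): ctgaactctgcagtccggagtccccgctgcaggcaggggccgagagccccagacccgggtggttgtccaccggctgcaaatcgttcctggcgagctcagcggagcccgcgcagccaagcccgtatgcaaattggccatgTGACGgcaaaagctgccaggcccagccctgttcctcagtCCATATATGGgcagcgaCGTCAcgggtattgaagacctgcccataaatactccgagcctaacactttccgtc
*Nr4a1* (chr15:101266596-101266845, + strand): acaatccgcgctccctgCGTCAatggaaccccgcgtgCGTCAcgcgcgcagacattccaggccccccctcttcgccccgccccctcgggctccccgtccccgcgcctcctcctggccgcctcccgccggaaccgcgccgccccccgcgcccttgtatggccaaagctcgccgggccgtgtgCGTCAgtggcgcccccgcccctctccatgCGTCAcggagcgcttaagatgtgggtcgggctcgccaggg
*Npas4* (chr19:4989972-4990221, - strand): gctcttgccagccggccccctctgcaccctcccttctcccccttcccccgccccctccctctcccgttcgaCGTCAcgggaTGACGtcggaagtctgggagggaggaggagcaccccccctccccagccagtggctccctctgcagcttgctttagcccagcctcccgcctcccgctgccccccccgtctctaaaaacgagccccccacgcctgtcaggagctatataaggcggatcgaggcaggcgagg

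A CRE core site lay in 9 of the 11 windows, and all 7 members searched had it in at least 1 window. Some *Egr2* windows overlap, so the same stretch was counted more than once. Over all 32851 windows 17.8% held one, and 19.8% of 27025 genes did. *Nr4a1* carried 4 core sites, and *Fos* carried 2, at 129 and 66 bases before its start, with a TATA box at 33 bases. Among the 7 members searched, a CArG box was found in *Egr2* alone, at 72 bases in the window shown, against 1.47% of all windows. The full palindrome TGACGTCA (1.55% of windows), the AP-1 site TGANTCA (6.75%) and the EGR site GCGTGGGCG (0.536%) were searched on both strands. None had a match in these 7 members. A core site lies inside any full palindrome, so those motifs overlap. A match describes letters only.

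Libraries held 3536802 to 5150280 counts on genes, and mitochondrial genes took 25.6 to 48.81% of them. The regions carried their markers: summed CPM of 9 striatal spiny neuron genes was 7420 to 10700 in DS and 1740 to 4070 in VS against 159 to 236 elsewhere, and 8 cortical excitatory neuron genes summed to 1970 to 2220 in MC. In 3 libraries outside the cortex these cortical genes exceeded 100 CPM, at 109 in WT DS 2, 353 in KO DS 7 and 394 in KO HY 8, while the highest of the other DS, VS and HY libraries had 68.8. Choroid plexus genes summed to 2810 CPM in KO DS 8 and to at most 79 in every other library. *Hdc* itself was 0 to 1.62 CPM in WT libraries outside HY, 4.17 to 6.73 in Het and 7.84 to 12.9 in KO, and 15.3 to 19.1 in WT HY against 11.7 to 14.2 in KO HY. A count per gene does not say which exons were read, so these values do not check the deletion, and KO below means the libraries labelled *Hdc*-KO.

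Most members were highest in DS or MC and lowest in HY. CPM was scaled by TMM, edgeR's trimmed mean of M-values. Per kilobase of exon, *Egr1* led in every region, with a median of 172 CPM per kb in DS, 134 in MC, 58.8 in VS and 28.5 in HY, and *Arc* was next at 39 in DS, 60.8 in MC, 10.3 in VS and 4.48 in HY. The lowest medians per kb were *Fosb* in DS (1.96) and *Egr2* in VS (1.1), MC (0.557) and HY (0.222). Raw counts behind these levels ran from 1900 to 6058 reads for *Egr1* in DS down to 0 to 14 for *Egr4* and 2 to 9 for *Egr2* in HY, so the HY values of those genes rest on few reads. In bulk tissue fewer cells of a type and less RNA per cell cannot be told apart.

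**Figure D1:**
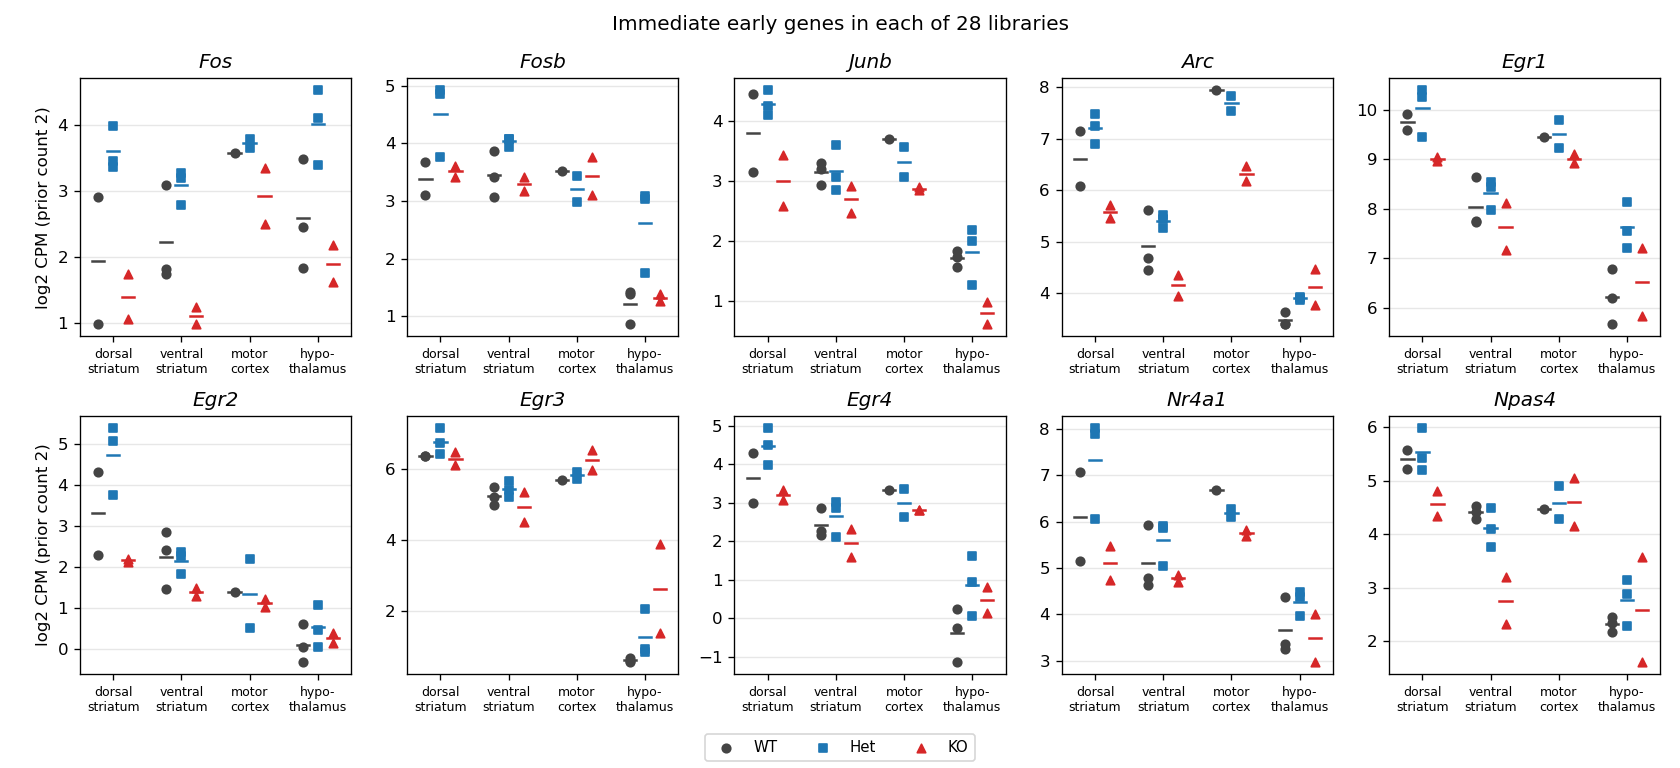
Log2 CPM (y axis, prior count 2, separate scale in each panel) of the 10 members by region (x axis), with 1 point per library, coloured by genotype, and a bar at each group's mean. The highest *Fos* value, 22.7 CPM, is in HY, while the other 9 members have their lowest median there.

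Among the AP-1 genes, *Fos* stood apart from the rest by region. Its CPM ran from 1.5 to 15.3 in DS (median 7.03), from 1.52 to 9.17 in VS (4.77), from 5.15 to 13.4 in MC (11.5) and from 2.6 to 22.7 in HY (7.57), so all regions overlapped. It was higher in HY than in VS by a log2 fold change of 0.80 ± 0.29 (SE; likelihood ratio test of edgeR, LRT, adjusted p = 0.0133), and higher in MC than in DS by 1.06 ± 0.32 (LRT adjusted p = 0.00235). The first call was lost without WT HY 2 (0.59, LRT adjusted p = 0.0658), without KO HY 8 (0.68, 0.0767) and without all libraries with raised cortical markers (0.68, 0.0553). *Fosb* ran from 8.09 to 29.8 in DS (12.2), 7.96 to 16.5 in VS (12.2), 7.48 to 13.2 in MC (10.3) and 1.36 to 8.01 in HY (2.2). DS, VS and MC were thus close for *Fosb*, and HY lay 1.79 to 2.24 below them on the log2 scale. *Junb* had 5.51 to 22.3 CPM in DS (16.6) and 1.07 to 4.08 in HY (2.69), which did not overlap. *Junb* shares 173 exon bases with *Prdx2* on the opposite strand, and the strand setting of the counting is not stated, so reads of that stretch cannot be assigned to 1 of them with certainty.

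Of the members, *Egr2*, *Egr3* and *Egr4* had the largest log2 differences between DS and HY. *Egr1*, also called *Zif268*, had 499 to 1350 CPM in DS (median 772), 143 to 398 in VS (264), 488 to 890 in MC (600) and 50 to 280 in HY (128). *Egr2* had its highest median in DS, at 3.94 to 41.8 CPM (13.1) against 2.02 to 6.73 in VS (3.74), 0.966 to 4.12 in MC (1.89) and 0.344 to 1.68 in HY (0.756). The DS range overlapped those of VS and MC. WT DS 1, KO DS 7 and KO DS 8, at 4.5, 4.14 and 3.94 CPM, lay within the VS range. *Egr3* had the largest regional difference of the members: 68.2 to 142 CPM in DS (84.7) and 51 to 92.3 in MC (59.9) against 1.03 to 14.4 in HY (1.42). The 14.4 CPM was in KO HY 8, the library with raised cortical markers, and the next HY library had 3.72. *Egr4* went from 7.5 to 30.2 CPM in DS (15.3) to 0 to 2.61 in HY (0.681). DS and HY libraries did not overlap for any EGR gene.

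*Nr4a1* was at 26.2 to 259 CPM in DS (66.5), 51.6 to 102 in MC (68.8), 24.5 to 60.3 in VS (30.6) and 7.37 to 22 in HY (15.4). *Npas4* was at 19.8 to 62.9 CPM in DS (37.2), 17.2 to 33 in MC (21.6), 4.55 to 22.8 in VS (17.9) and 2.6 to 11.4 in HY (4.83). *Arc* was highest in MC, at 71.4 to 245 CPM (186), followed by DS at 43.3 to 177 (119), VS at 14.9 to 48.5 (31.5) and HY at 10 to 21.5 (13.7). The DS range of *Nr4a1* covered that of MC.

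Between the 2 striatal parts, 8 of 10 members were lower in VS than in DS and none was higher, with a median log2 fold change of -1.35 over the members, when 29% of all genes tested were called, 14.6% lower and 14.4% higher, and the median over all genes was 0.01. *Arc* fell by 1.66 ± 0.16 on the log2 scale (LRT adjusted p = 1.58e-24), *Egr1* by 1.57 ± 0.20 (LRT adjusted p = 3.2e-13) and *Npas4* by 1.43 ± 0.20 (LRT adjusted p = 1.54e-11). *Fos*, at -0.28 ± 0.31, and *Fosb*, at -0.25 ± 0.19, were not called. Without the libraries with raised cortical markers, *Junb* moved from -0.79 to -0.32 and *Nr4a1* from -1.16 to -0.59 and neither was called (LRT adjusted p = 0.286 and 0.0935).

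Against DS, 9 members were lower in HY, with a median of -2.65. Of all genes 56.1% were called, 25.5% lower and 30.7% higher. The log2 differences were -5.02 ± 0.24 for *Egr3* (LRT adjusted p = 5.61e-97), -4.02 ± 0.34 for *Egr4* and -3.76 ± 0.38 for *Egr2*, and between -2.75 and -2.24 for the other 6, while *Fos* was not called at 0.52 ± 0.29. Against VS, 9 were lower in HY (background 19.7%) and *Fos* was the 1 higher member (23.9%), with 43.6% of genes called. Against MC, 9 were lower in HY (22.9% of genes, 25.4% higher and 48.2% in all), from -4.46 ± 0.26 for *Egr3* to -1.35 ± 0.46 for *Egr2*, and *Fos* was not called at -0.54 ± 0.30. The call of *Egr2* was lost with the QL (quasi-likelihood) test of edgeR (adjusted p = 0.0629) and without Het MC 6 (-0.89, LRT adjusted p = 0.141).

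Between MC and DS the members split. In all 43.4% of genes were called. *Fos* and *Arc* were higher in MC (22% of genes), *Arc* by 0.81 ± 0.17 (LRT adjusted p = 6.96e-06), and *Egr2*, *Egr3*, *Egr4* and *Npas4* were lower (21.4%), *Egr2* by -2.41 ± 0.40 (LRT adjusted p = 1.87e-08). With library size alone as the scaling, 2 were higher and 2 lower. The calls of *Egr3* and *Npas4* (-0.56 and -0.61) were lost with library size alone, with DESeq2 (adjusted p = 0.141 and 0.0736) and without 1 library in several cases, and that of *Egr4* without WT DS 2 (-0.54, LRT adjusted p = 0.0822). Against VS, 7 members were higher in MC and none lower (background 21.5% and 22.2%, 43.7% in all), led by *Arc* at 2.47 ± 0.17 (LRT adjusted p = 2.64e-47), and *Fosb*, *Junb* and *Egr2* were not called. The call of *Egr3* (0.70) was lost with DESeq2 (adjusted p = 0.0515), and that of *Egr4* (0.72) without KO VS 8 (0.60, LRT adjusted p = 0.0765) or Het MC 6 (0.58, 0.103). In the main fit the order DS above VS above HY therefore held, with each step called, for *Junb*, *Arc*, *Nr4a1*, *Npas4* and the 4 EGR genes. For *Junb* and *Nr4a1* the step from DS to VS shrank to -0.32 and -0.59 without the libraries with raised cortical markers.

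Related genes did not all follow the same order. Of 34 other rapid response genes tested, 14 were lower and none higher in VS than in DS (median -0.45). Over all genes 14.6% were lower and 14.4% higher. Among the 14 were *Dusp6*, a phosphatase that acts on ERK (-1.04 ± 0.14), and *Plk2* (-0.82 ± 0.12). In HY against DS 7 of the 34 were higher and 14 lower (median -0.29), beside 30.7% higher and 25.5% lower of all genes. Of 16 late response genes, 6 were higher and 5 lower in HY than in DS, not far from those shares of all genes. *Homer1*, a postsynaptic scaffold, was lower by -3.06 ± 0.13, while *Pcsk1*, which processes prohormones, was higher by 1.88 ± 0.13. Of 15 upstream regulators, none was higher and 13 were lower in HY than in DS (median -0.97), led by the kinase gene *Camk4* at -3.34 ± 0.13 (83 against 858 CPM, LRT adjusted p = 1.25e-121). In MC against VS 15 of the 34 rapid genes were higher and 1 lower, beside 21.5% and 22.2% of all genes.

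In DS, each of the 10 members had its highest value in a Het library, and 7 had their lowest in a KO library and 3 (*Fos*, *Fosb* and *Egr4*) in WT DS 1. Of the 7 DS libraries 3 are Het, and the share of all genes with this order was not counted. The comparison of KO with Het had the most calls of the genotype comparisons. *Fos* was at 9.81, 10.5 and 15.3 CPM in Het, 1.61 and 2.89 in KO, and 1.5 and 7.03 in WT. All Het libraries were above all KO and WT libraries, and KO lay within the WT range. KO was lower than Het by -2.41 ± 0.54 on the log2 scale (LRT adjusted p = 0.00458). *Nr4a1* was at 66.5, 235 and 259 CPM in Het, 26.2 and 44.2 in KO, and 35.1 and 134 in WT. KO was below every Het library, by -2.41 ± 0.46 (LRT adjusted p = 0.00271), and 1 WT library was as low as KO. *Egr2* was at 13.1, 33.6 and 41.8 CPM in Het, 3.94 and 4.14 in KO, and 4.5 and 19.5 in WT, a difference of KO from Het of -2.86 ± 0.53 (LRT adjusted p = 0.000844).

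*Arc* was at 119, 152 and 177 CPM in Het DS, 43.3 and 51.8 in KO and 66.9 and 141 in WT. KO lay below both other groups, by -1.65 ± 0.26 from Het (LRT adjusted p = 2.31e-05) and by -1.13 ± 0.29 from WT (LRT adjusted p = 0.0333). *Junb* was at 16.6, 18.5 and 22.3 CPM in Het, 5.51 and 10.4 in KO and 8.39 and 21.3 in WT, and KO was lower than Het by -1.26 ± 0.33 (LRT adjusted p = 0.0333). In total 5 of 10 members were called lower in KO than in Het and none higher, against 0.127% and 0.334% of all genes (0.461% in all). In 9 of 10 members both KO libraries were below all 3 Het libraries, as in 10.5% of genes (9.77% had both KO above). *Egr3* was the exception, at 68.2 and 88.6 CPM in KO and 84.7 to 142 in Het.

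The QL test of edgeR kept 3 of these 5 calls, those of *Arc* (adjusted p = 0.00555), *Egr2* (0.00928) and *Nr4a1* (0.0353), and not those of *Fos* (0.0709) and *Junb* (0.0881). The LRT call of *Fos* was also lost without Het DS 4 (-2.18, adjusted p = 0.0738) or KO DS 7 (-2.04, 0.279), that of *Junb* without Het DS 4, Het DS 5 or KO DS 8 (-1.28 to -0.89, adjusted p from 0.119 to 0.599), and that of *Nr4a1* without KO DS 8 (-2.08, 0.154). *Arc* and *Egr2* kept the call without any 1 DS library. Only *Arc* of the members was called between KO and WT (0.0334% of genes lower, 0.354% higher, 0.387% in all), and that call was lost with the QL test (adjusted p = 0.112), without WT DS 2 (-0.49, LRT adjusted p = 0.73), without KO DS 7 (-1.27, 0.0565) or without KO DS 8 (-1.01, 0.449). The other 9 members had KO to WT differences from -1.58 ± 0.58 (*Egr2*) to 0.10 ± 0.38 (*Fosb*). Both KO libraries were below both WT libraries for 4 members, *Arc*, *Egr1*, *Egr2* and *Npas4*, and above for none, against 18.2% and 18.8% of genes. Between Het and WT all 10 members had values above 0, from 0.17 ± 0.32 (*Npas4*) to 1.43 ± 0.48 (*Fos*), and none was called (0.0534% of genes called higher, 0.0868% in all). At an unadjusted LRT p under 0.05 there were 6, beside 1191 of all 14979 genes, and the QL test and DESeq2 called none. All Het libraries were above both WT libraries for *Fos*, *Fosb* and *Egr3* (11.3% of genes, and 10.2% below). Without WT DS 2, 4 members were called higher in Het.

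Other measures moved in DS beside these genes. Mitochondrial genes took 41.71 and 48.81% of counts in WT, 31.93 to 40.11% in Het and 33.12 and 34.78% in KO, and 5 oligodendrocyte markers summed to 1540 and 1730 CPM in WT, 2210 to 2250 in Het and 2320 and 3020 in KO. Markers of spiny neurons summed to 8530 and 10700 CPM in WT, 7420 to 8730 in Het and 7630 and 8770 in KO, so KO and Het overlapped. Het DS 4, with the highest *Fos*, *Egr2* and *Nr4a1*, also had the most reads outside exons (19.05% against at most 16.09% in the other DS libraries). Of the 8 cortical markers, the sum was 353 CPM in KO DS 7 and 10.8 in KO DS 8, and both had low *Fos*, *Arc*, *Egr2* and *Nr4a1*. With the level of the cortical markers as a covariate in a fit of DS and VS, the same 5 members were called lower in KO than in Het, from -3.27 (*Egr2*) to -1.83 (*Junb*), and *Arc* was called lower in KO than in WT (-1.22, LRT adjusted p = 0.0207). Without the libraries with raised cortical markers, DS kept only WT DS 1 for WT and KO DS 8 for KO. KO DS 8 is the library with choroid plexus genes at 2810 CPM. Differences of KO from Het then ran from -2.9 (*Egr2*) to -1.79 (*Junb* and *Arc*), with *Fos* at -2.04. That of *Arc* from WT was -0.63. The part of the mitochondrial share, of the oligodendrocyte markers and of the choroid plexus genes was not tested.

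**Figure D2:**
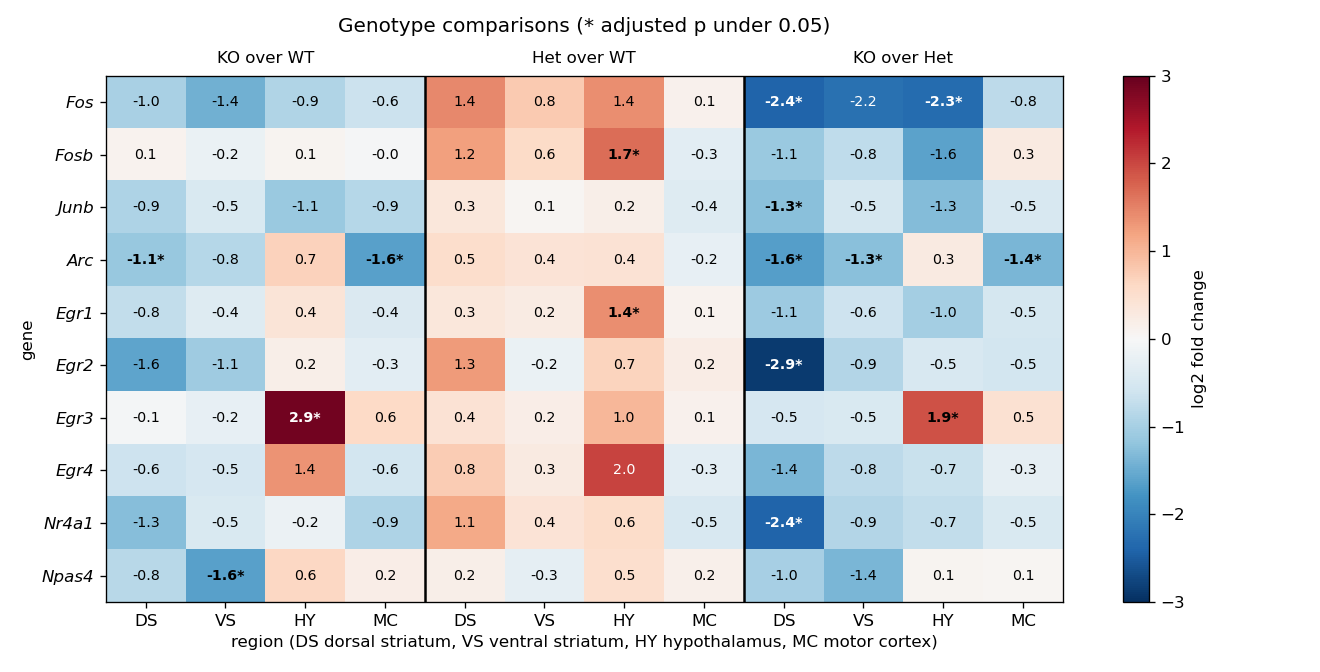
Log2 fold change (colour and printed value) of the 10 members (rows) in 12 genotype comparisons (columns, by region), with an asterisk where the LRT adjusted p was under 0.05. The DS column of KO over Het has 5 asterisks, all for lower levels, and the KO over WT columns have 1 each.

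Among the related genes in DS, 4 of 34 rapid genes were lower and 1 higher in KO than in Het. For late response genes 3 of 16 were lower and 1 higher. Over all genes 0.127% were called lower and 0.334% higher. *Fosl2*, another AP-1 gene, was at 16.6, 44.6 and 53.8 CPM in Het and 8.4 and 14.3 in KO (-1.76 ± 0.41, LRT adjusted p = 0.0151), and *Apold1*, at 4.9 to 7.54 CPM in Het and 1.31 and 1.84 in KO, fell by 1.98 ± 0.44 (LRT adjusted p = 0.000579). *Rgs2*, a regulator of G protein signalling, was at 110 to 168 CPM in Het and 74.5 and 78.3 in KO (-0.89 ± 0.21, LRT adjusted p = 0.0111). *Nr4a2*, a relative of *Nr4a1*, was the higher rapid gene, at 76.9 CPM in KO DS 7 and 2.1 in KO DS 8, and among WT it was 26.1 in WT DS 2 and 1.5 in WT DS 1. Its 2 high libraries were the 2 DS libraries with raised cortical markers. No upstream regulator was called in any DS genotype comparison, where at most 0.461% of all genes were called.

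In VS *Arc* and *Npas4* were each called once. *Arc* was at 37.8, 43.1 and 45.6 CPM in Het, 14.9 and 20.1 in KO and 21.3, 25.2 and 48.5 in WT. KO was below every other library, and KO was called against Het (-1.26 ± 0.28, LRT adjusted p = 0.0284) and not against WT (-0.85 ± 0.29, LRT adjusted p = 0.554). *Npas4* was at 4.55 and 8.74 CPM in KO, 19.1, 20.8 and 22.8 in WT and 13.1, 16.7 and 22 in Het. KO lay below both other groups, by -1.64 ± 0.37 from WT (LRT adjusted p = 0.0209), and KO VS 8, the lowest, also had the fewest spiny neuron marker counts of the region (1740 CPM against 2030 to 4070), a relation that was not tested. *Fos* was at 1.52 and 1.89 CPM in KO, 2.88, 3.08 and 8.08 in WT and 6.47, 8.72 and 9.17 in Het, and its difference of KO from Het, -2.23 ± 0.57, was not called (LRT adjusted p = 0.113).

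Thus 1 member was called lower in KO than in WT in VS (0.02% of genes, 0.0801% in all) and 1 lower in KO than in Het (0.00668%, 0.0467% in all). Both KO libraries lay below all Het libraries for 6 members (8.95% of genes, 8.01% above) and below all WT libraries for 4 (8.69%, 8.51% above). Neither call held with the QL test (adjusted p = 0.368 for *Npas4* and 0.533 for *Arc*). The call of *Npas4* was lost without KO VS 8 (-1.25, LRT adjusted p = 0.697) or any 1 of the 3 WT libraries (-1.70 to -1.58, adjusted p from 0.0528 to 0.185), and that of *Arc* without KO VS 8 (-1.07, adjusted p = 0.611) or any 1 of the Het libraries (-1.34 to -1.21, adjusted p from 0.0568 to 0.254) and with the cortical markers as a covariate (-1.21, 0.107). No member was called between Het and WT by the LRT, the QL test or DESeq2 (0.0534% of genes), and none had an unadjusted LRT p under 0.05. *Fosb* was the 1 member with all Het libraries above all WT libraries (6.04% of genes, 5.17% below).

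In HY the Het libraries were again high for several members. *Fos* was at 10.1, 16.9 and 22.7 CPM in Het, 2.6 and 4.08 in KO and 3.1, 5.02 and 10.7 in WT. Het lay above KO throughout and overlapped WT, and KO was lower than Het by -2.30 ± 0.48 (LRT adjusted p = 0.00449). *Fosb* was at 2.92, 7.78 and 8.01 CPM in Het and 1.36, 2.15 and 2.24 in WT, a difference of 1.68 ± 0.38 (LRT adjusted p = 0.0105). *Egr1* was at 147, 189 and 280 CPM in Het and 50, 73.3 and 109 in WT, a difference of 1.40 ± 0.31 (LRT adjusted p = 0.0157). Het and WT did not overlap for either, and these were the 2 members called higher in Het than in WT (0.0401% of genes, 0.0935% called in all). *Arc* and *Egr3* did not overlap either, which makes 4 members with Het above WT (6.04% of genes, 5.04% below). Neither call held with the QL test (adjusted p = 0.419 and 0.326) or without any 1 of WT HY 1, WT HY 3, Het HY 4 or Het HY 5, with values from 1.12 to 1.77.

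The call of *Fos* between KO and Het in HY (0.0134% of genes lower, 0.234% called in all) was lost with the QL test (adjusted p = 0.122) and without Het HY 5, KO HY 7 or KO HY 8, with -2.66 at the farthest. Both KO libraries were below all Het libraries for 4 members (9.1% of genes, 10% above). *Egr3* was the other called member, at 14.4 CPM in KO HY 8, 2.17 in KO HY 7, 1.03 to 1.16 in WT and 1.36 to 3.72 in Het. Both KO libraries were above every WT library, with a difference of 2.90 ± 0.49 from WT (LRT adjusted p = 1.41e-06) and 1.9 ± 0.43 from Het (LRT adjusted p = 0.00562), beside 0.147% (0.167% in all) and 0.22% of genes called higher. *Arc* and *Egr3* were the 2 members with KO above WT (11.3% of genes) and *Junb* the 1 with KO below (10%). Without KO HY 8 the *Egr3* differences became 0.98 from WT and -0.02 from Het, with LRT adjusted p = 1 for both. The difference from Het was also lost without Het HY 4 (1.69, LRT adjusted p = 0.0789) or Het HY 6 (1.66, 0.141), and the QL test called neither (0.161 and 0.406). *Arc* was highest in the same library, at 21.5 CPM, against 13.2 in KO HY 7 and 10, 10.1 and 12.1 in WT. All 8 cortical markers together summed to 394 CPM in KO HY 8 and to 33.3 to 68.8 in the other HY libraries. *Mef2c*, a factor abundant in cortex and the 1 upstream regulator called higher in KO HY, was at 164 CPM in KO HY 8 and 30.6 to 43.6 in the rest.

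**Figure D3:**
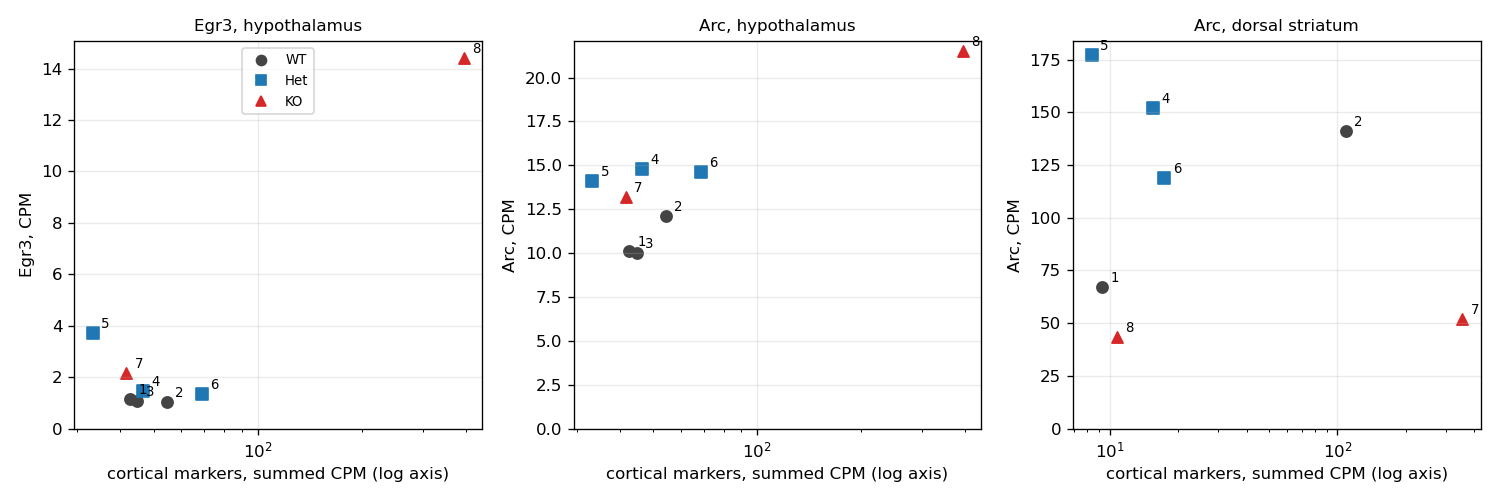
CPM of *Egr3* in HY, *Arc* in HY and *Arc* in DS (y axis) against the summed CPM of 8 cortical excitatory neuron markers (x axis, log scale), with 1 numbered point per library coloured by genotype. KO HY 8 is far right and highest for *Egr3* and *Arc* in HY, while in DS the KO libraries are lowest for *Arc* at 353 and at 10.8 CPM of markers.

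MC had 1 WT library, so differences from WT have no replicate check on that side. *Arc* was at 245 CPM in WT, 186 and 227 in Het and 71.4 and 87.8 in KO. Both KO libraries were below the rest, and KO was called lower than Het (-1.38 ± 0.28, LRT adjusted p = 0.0189, the 0.00668% of genes called in that comparison) and lower than WT (-1.62 ± 0.34, LRT adjusted p = 0.00397, with 0.0134% of genes lower and 0.0334% in all). The difference from Het was not called with the QL test (adjusted p = 0.13) or without any 1 of the 4 libraries, and that from WT was called with the QL test (0.032), not with DESeq2 (0.632) and not without KO MC 7 (-1.48, LRT adjusted p = 0.664). No other member was called in MC, and none between Het and WT by the LRT, the QL test or DESeq2 (0.0134% of genes), where none had an unadjusted LRT p under 0.05. Both KO libraries were below both Het libraries for 5 members and above for 1 (16.7% and 17.3% of genes), and below the WT library for 7 and above for 1 (33.7% and 31.8%). Against the WT library both Het libraries were below for 4 and above for 2 (33% and 34.3%). Oligodendrocyte markers summed to 740 and 930 CPM in KO MC against 1120 to 1320 in the others, and mitochondrial genes took 25.6 and 30.1% of counts against 31.82 to 33.92%, and their part was not tested. *Npas4* was at 17.2 and 33 CPM in KO, 19.1 and 29.3 in Het and 21.6 in WT, and the groups overlapped.

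Across regions, *Arc* was thus lower in KO than in Het in DS, VS and MC, each with a call, and in HY the value was 0.26 ± 0.29. The comparisons of KO with WT and with Het share the KO libraries. The difference of KO from WT in DS minus that in HY was called for *Arc*, at -1.83 ± 0.41 (LRT adjusted p = 0.0159), and for *Egr3*, at -2.96 ± 0.60 (LRT adjusted p = 0.00107), 2 of 10 members beside 0.0601% of genes called lower (0.0935% higher, 0.154% in all). Without KO HY 8 they were -1.43 and -1.03 and not called. The call of *Arc* was also lost without WT DS 2 (-1.18), KO DS 8 (-1.71), WT HY 1 (-1.79) or WT HY 3 (-1.78), and the QL test called neither (adjusted p = 0.217 for both). The difference in DS minus that in VS was called for no member by the LRT, the QL test or DESeq2 (0.00668% of genes called by the LRT) and for none at an unadjusted p under 0.05, with values from -0.80 ± 0.69 (*Nr4a1*) to 0.81 ± 0.52 (*Npas4*).

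Several members had like orders of libraries, in part by number across regions. For *Fos* in VS, libraries 2, 4, 5 and 6 were at 6.47 CPM or above and libraries 1, 3, 7 and 8 at 3.08 or below. The same 4 numbers lay above the widest gap in HY (10.1 against 5.02 CPM) and in DS (7.03 against 2.89, with no library 3). *Arc* had the same split in DS (119 against 66.9 CPM) and in VS (37.8 against 25.2), and *Junb* (16.6 against 10.4), *Egr2* and *Egr4* in DS. In all, 8 of 30 member and region pairs in DS, VS and HY had this split at their widest gap, 5 in DS, 2 in VS and 1 in HY, and the other pairs had other splits, such as *Arc* in HY with number 8 alone above. In that split WT library 2 was with the Het libraries and WT libraries 1 and 3 with the KO libraries. In DS all 10 members were highest in a Het library, 8 of them led by numbers 4 and 5, and all 10 were lowest in number 1, 7 or 8. In HY 7 members were highest in a Het library and 6 were led by 4 and 5, in VS these counts were 5 and 2, and in MC 4 and 0. The lowest value was in number 1, 7 or 8 for 9 members in VS, 6 in MC and 6 in HY. Of the 7 DS libraries 3 are Het, and numbers 1, 7 and 8 make up 3 more. The share of all genes with these orders and splits was not counted. Most members vary together across libraries, so they are not separate cases. *Npas4* had another order, led by numbers 6 and 1 in DS and 1 and 6 in VS.

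**Figure D4:**
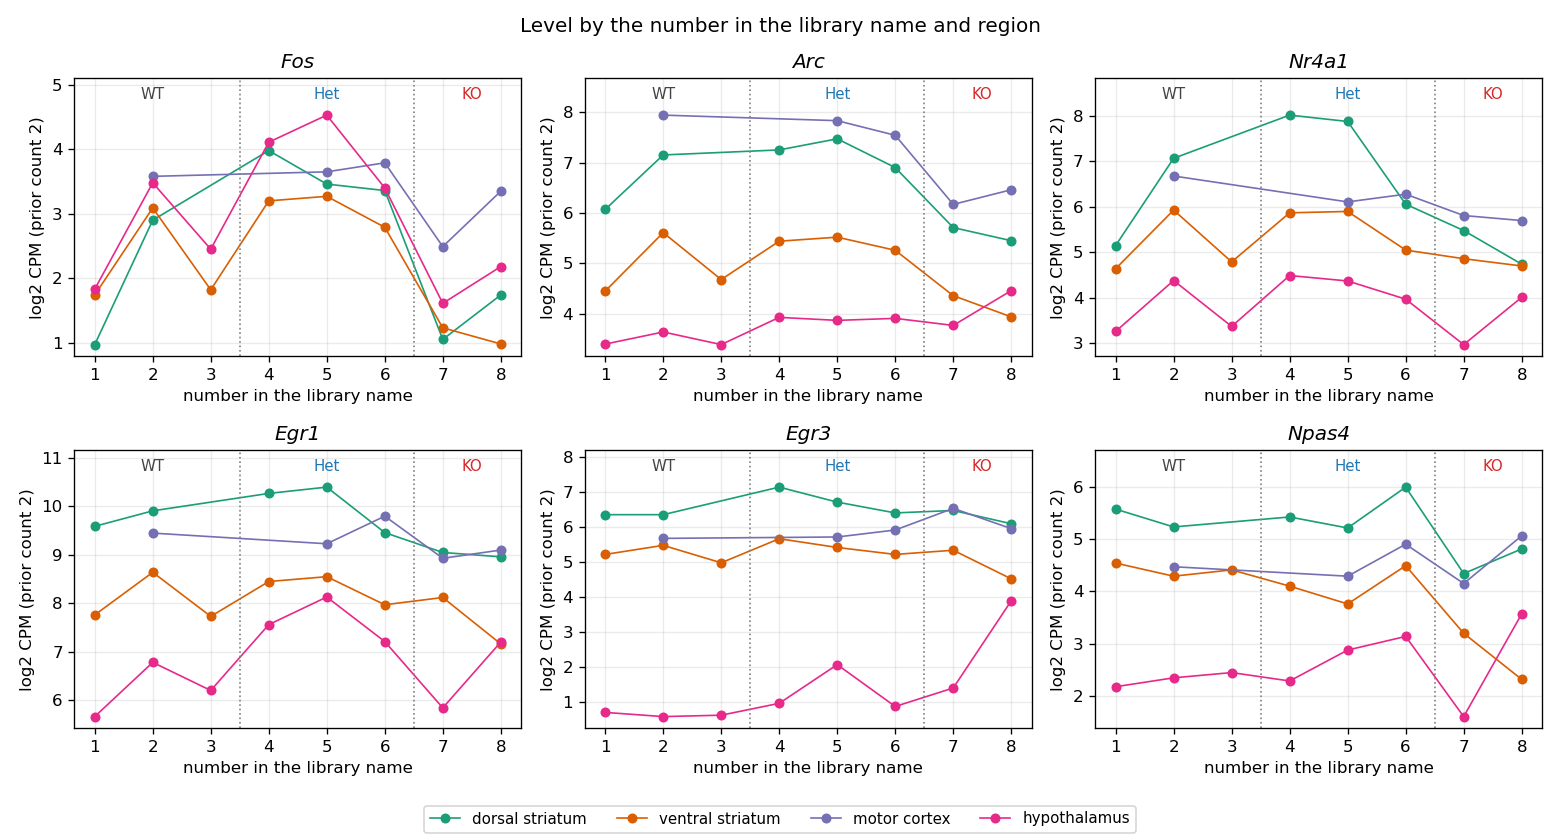
Log2 CPM (y axis, prior count 2) of 6 members by the number in the library name (x axis, genotype above), with 1 line per region. *Fos*, *Arc* and *Nr4a1* are low at 1, high at 2, 4 and 5 and low at 7 in DS and VS, and *Egr3* and *Npas4* rise at 8 in HY.

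Relations between *Fos* and each other member over the libraries of a region were tested by exact permutation of the pairings in DS (n = 7), VS (n = 8) and HY (n = 8), 27 relations in all. By Pearson correlation, 26 were above 0 and 6 passed an adjusted p of 0.05. These were *Egr2* in DS, *Arc* and *Nr4a1* in VS, and *Fosb*, *Egr1* and *Nr4a1* in HY. By Spearman correlation, which uses ranks, only *Arc* in VS among these 6 passed (permutation adjusted p = 0.0375). The others had a Spearman permutation adjusted p from 0.0664 to 0.0827. *Fosb* in DS passed by Spearman correlation alone (permutation adjusted p = 0.0375). Of 30 relations of a member with itself in another region, 25 were above 0 and 6 passed by Pearson correlation. By Spearman correlation only *Fosb* in DS with HY and *Fos* in VS with HY passed (permutation adjusted p = 0.0417 for both). At its widest gap *Fos* split the libraries of a region into 2 sets, of 3 or 4 each. That gap was 38.5% of its log2 range in DS, 42.4% in VS and 32.5% in HY. Any list of values has a widest gap, and 8 of 30 member and region pairs had this split. The tests above took all libraries of a region together. No pooled coefficient is given, and the relation within so small a set could not be tested. Without any 1 number the counts were 1 to 4 of the *Fos* relations and 0 to 7 of those between regions.

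**Figure D5:**
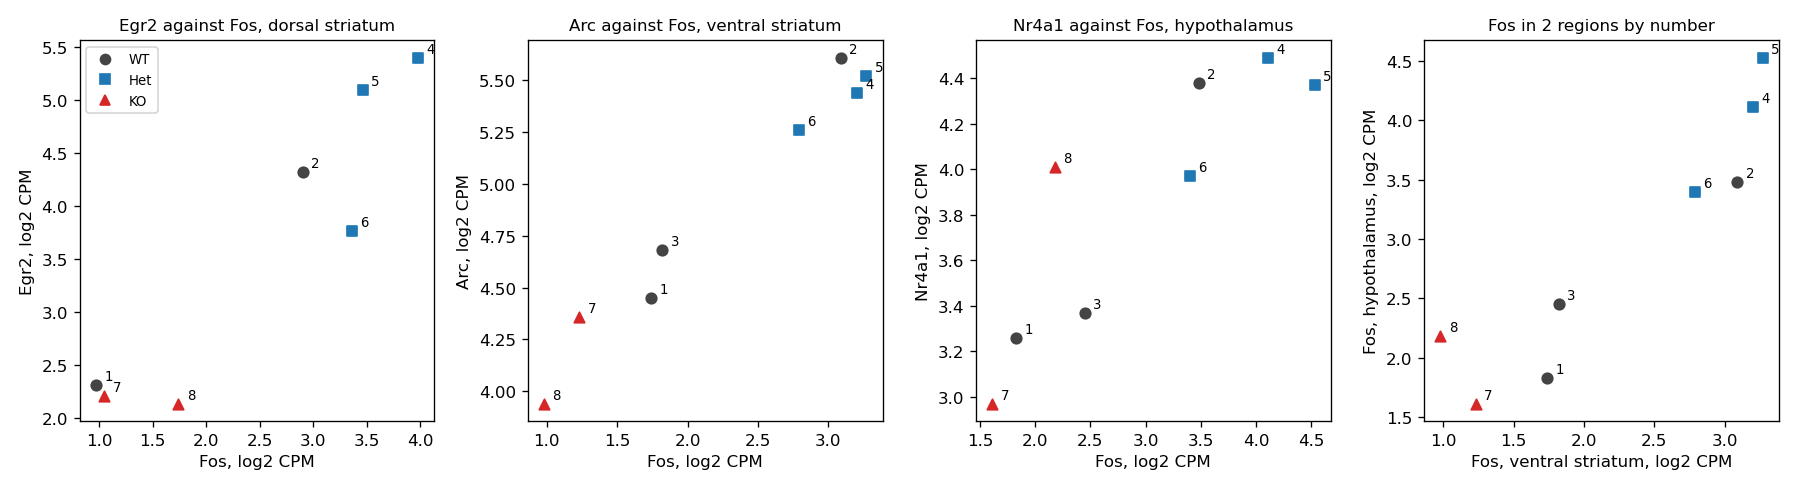
Log2 CPM of *Egr2* in DS, *Arc* in VS and *Nr4a1* in HY against *Fos* in the same libraries, and *Fos* in HY against *Fos* in VS by number, with 1 numbered point per library coloured by genotype. Numbers 2, 4, 5 and 6 are to the right in every panel, and 1, 7 and 8, with 3 in VS and HY, where it is present, to the left.

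A comparison chosen after these orders were seen averaged log2 CPM in VS and HY for each of the 8 numbers, so that each number counted once, and used limma. No member was called between Het and WT, KO and WT or KO and Het, where 0.0134%, 0.0467% and 0% of genes were called. At an unadjusted limma p under 0.05 there were 7, 4 and 7 members, beside 867, 1046 and 562 of all 14979 genes. Without number 2, 2 members were called between Het and WT. The largest difference was that of *Fos* between KO and Het, at -2.05 ± 0.33 (limma adjusted p = 0.0987), from a mean of 3.55 in Het to 1.5 in KO. For 7 members both KO numbers were below all 3 Het numbers (8.77% of genes), for 2 all Het numbers were above all WT numbers (6.76%), between KO and WT 3 were lower (9.83%) and 1 higher (11.5%), and *Fosb*, at 0.99 ± 0.18, was the nearest to a call between Het and WT (limma adjusted p = 0.104).

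Spread within groups was above the median of all genes for every member. By the standard deviation of log2 CPM within groups, the members lay between the 67.8 (*Arc*) and 97.8 (*Nr4a1*) percentiles. The biological coefficient of variation was 0.188 for *Arc*, the lowest, and 0.349 for *Egr2*, the highest, between the 83.1 and 96.9 percentiles of the 14979 genes, whose median was 0.106. As a description over 28 libraries, in deviations of log2 CPM from the 12 group means, each member was correlated with the mean of the other 9: r was 0.832 for *Egr1*, 0.799 for *Nr4a1*, 0.718 for *Arc* and 0.709 for *Fos*, and -0.0447 for *Npas4*. These points share library and depth. The genes outside the members most like their mean on this scale were *Kcna5*, a potassium channel gene (r = 0.815), *Hdac6* (0.795) and *Kmt2a* (0.795), and the 10 nearest included the clock gene *Per2* (0.78) and *Nr4a3* (0.775), the third NR4A gene. On log2 CPM across regions the nearest were *Socs7* (0.937), *Tet3* (0.927) and *Zfp46* (0.927).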

How the data were processed

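RNA-seq was made from 5 ng of RNA per dissected region (dorsal and ventral striatum, hypothalamus, motor cortex) of WT, Het and *Hdc*-KO mice, in 28 libraries of single-end 50 base reads. Per the labels and methods, the authors trimmed adapters (Trimmomatic 0.32, reads under 20 bases discarded), removed ribosomal reads (Bowtie2 2.2.3), aligned to GRCm38 with Ensembl annotation 75 (STAR 2.3.1z8) and counted uniquely mapped reads on exons (HTSeq 0.6.1p1, union mode). The strand setting is not given in the sources used here. The deposited files hold these counts, whole numbers with no normalization applied by the authors. Tool versions come from the submitters' processing notes.

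Groups were taken from the genotype and tissue labels. GENCODE M21 (GRCm38) gave positions, and symbols for 28758 of the 29878 genes, and RefSeq the promoters. Genes above 1 CPM in at least 2 of 28 libraries (14979) were tested with edgeR 4.0.16 (TMM, glmFit and glmLRT, as the methods name) in R 4.3.3, in 1 model of 12 groups that share their spread, with Benjamini-Hochberg adjustment over all genes and calls at adjusted p under 0.05. A prior count of 2 was added for log2 CPM. Alternatives were size factors (RLE), library size alone, no filter, edgeR's QL test, DESeq2 1.42.0, a replicate block, smaller fits, a cortical covariate, and each library left out. Those without libraries with raised cortical markers (over 100 CPM) and the comparison by number (limma 3.58.1) were chosen after seeing the data. On simulated counts for KO against WT in DS, the LRT recovered 81 of 91 genes changed by 1 on the log2 scale and 106 of 109 changed by 2 among 14772, with 15 unchanged genes called, and the QL test 79, 105 and 10. The by-number limma fit recovered 90 and 109, with 5 unchanged called. Counts were drawn with the spread of the fit itself. Changes were set only in genes above a minimum mean count, which members such as *Fos* and *Egr2* did not reach. The recovery therefore does not apply to genes with few reads.

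Named were all 10 members, the genes of each related list with the smallest p, and the genes most like the members' mean. Beyond the rule, *Mef2c*, *Nr4a2* and *Prdx2* are named for what they share with a member's result. Of 35 other rapid response genes, 34 were found (not *Cyr61*). The members and lists were chosen with earlier results of these data known. Depth was 3536802 to 5150280 counts per library, so low genes rest on few reads. No promoter is printed for *Arc*, *Egr1* or *Egr3*.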

Additional observations from a re-analysis of the deposited data

Results flagged for a closer look

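*Arc* and *Egr3* differed between regions in their KO to WT difference. In DS minus HY the LRT gave -1.83 for *Arc* and -2.96 for *Egr3*. For *Arc*, every KO library was above every WT library in HY (log2 fold change 0.69) and below every WT library in DS (-1.13). In VS every KO library was also below every WT library (-0.85), the opposite of the 0.69 in HY, and that difference was not tested. KO HY 8, with cortical markers at 394 CPM, had the highest *Arc* and *Egr3* of HY. Without the libraries with raised cortical markers the DS minus HY values were -0.93 and -1.24 and neither was called. No group held enough libraries for a test of outlying libraries.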

How the results depend on the processing

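Of the 49 calls in comparisons of regions, direction held in all 1066 alternative fits and the call was lost in 25, so the counts of members stayed within 1.5 times, including 6, 8, 10, 7, 10 and 9 with the replicate block (in the order MC over DS, VS over DS, HY over DS, MC over VS, HY over VS, HY over MC). Of the 17 genotype calls, including the DS minus HY difference, the call was lost in 78 of 211 fits and direction changed in 2, both *Egr3* for KO over Het in HY, at -0.02 without KO HY 8 (up to 2.70 without KO HY 7) and without the libraries with raised cortical markers.

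The replicate block could be fitted only to differences between or across regions, because each number has 1 genotype, and it gave 0 and 2 calls for DS minus VS and DS minus HY. Deviations of same-numbered libraries had a mean correlation of 0.007 over 34 pairs (-0.08 to 0.086), against -0.004 over 56 pairs with other numbers. Own-number libraries were the best match for 18 of 27 libraries. Over the members alone, r ran from -0.523 to 0.711 for same numbers and from -0.711 to 0.624 for other numbers. In groups of 2 libraries the deviations mirror each other, so this measure cannot tell whether the numbers pair the libraries.

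With the QL test the calls were 0 for KO over WT in DS, VS and HY, for Het over WT in HY, for KO over Het in VS, HY and MC and for DS minus HY, and 3 for KO over Het in DS. With DESeq2 they were 0 for KO over WT in DS, VS and MC, Het over WT in HY, KO over Het in VS and MC and DS minus HY, and 1 for KO over Het in HY. Library size alone gave 0 for KO over WT in DS, 1 for Het over WT in DS, 0 for KO over Het in MC and 13 for the *Fos* relations. It moved the median of all genes to 0.28 for KO over WT in DS, 0.20 for Het over WT in DS and 0.41 for HY over DS, and no called member changed sign. No filter gave 2 for KO over Het in VS. Fits of 1 region gave 3 for KO over Het in VS, 2 for KO over WT and for KO over Het in MC and 1 for KO over Het in HY. Without the libraries with raised cortical markers the calls were 0 for KO over WT in DS and HY, 4 for Het over WT in DS, 0 for KO over Het in HY and 0 for DS minus HY. Those last fits have WT DS 1, KO DS 8 and KO HY 7 as the only library of their groups. The causes were not tested.

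Leaving out 1 library gave 0 to 2 calls for KO over WT in DS, 0 to 1 in VS, 0 to 1 in HY and 0 to 1 in MC, 0 to 4 for Het over WT in DS and 0 to 3 in HY, 3 to 7 for KO over Het in DS, 0 to 1 in VS, 0 to 2 in HY and 0 to 0 in MC, 0 to 3 for DS minus HY, 0 to 2, 0 to 1 and 0 to 1 for Het over WT, KO over WT and KO over Het by number, 1 to 4 for the *Fos* relations and 0 to 7 for those between regions. For KO over Het in DS the fewest, 3, came without Het DS 4 or KO DS 8. Groups of 1 to 3 libraries and HY counts as low as 0 limit every genotype statement.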
